A study of Mus musculus with 32 samples.

Results

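The 8 libraries described here, of 32 in the series, compare iCre with LacZ in mouse cardiac fibroblasts treated with IL-1b. They are the 4 libraries titled for iCre with IL-1b and the 4 titled for LacZ with IL-1b, and each iCre library was compared with the LacZ library of the same replicate number. The cells were isolated cardiac fibroblasts of genotype C57BL/6J_Pkm2fl/fl, used at passage 1, so both arms carry the floxed allele. They were transduced with LacZ, the control, or with iCre, a Cre recombinase, and then kept for 24 h with IL-1b at 15 ng/ml. The other 24 libraries hold the same LacZ and iCre arms, 4 each, in 3 conditions: SS (not spelled out in the labels, whose protocol speaks of serum starvation), bFGF at 20 ng/ml and TGFb at 10 ng/ml. The vector that carried LacZ or iCre and the share of cells that recombined are not stated. The labels do not say whether a replicate number is a mouse, an isolation or a day, so p-values measure the spread between these libraries, which may be technical. The protocol text names another floxed gene (TAK1), and the treatment tags of the LacZ samples name other groups than their titles, so groups were taken from the titles. The LacZ libraries titled for IL-1b are tagged LacZ_Con, and those titled LacZ_FGF are tagged iCre_TNFa.

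Pyruvate kinase catalyses the last step of glycolysis, in which phosphoenolpyruvate becomes pyruvate and ATP is made. The Pkm gene makes the PKM1 or the PKM2 enzyme by including 1 of a pair of mutually exclusive exons. PKM1 is constitutively active, whereas PKM2 is regulated by metabolites and signalling and is the usual form in proliferating and mesenchymal cells. IL-1b is an inflammatory cytokine that acts through its receptor and the kinase TAK1 on NF-kB, and it drives chemokine, cytokine and nitric oxide synthase genes in fibroblasts.

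The alternative exons of Pkm are shown because the genotype label and the series title concern this choice. Both come from GENCODE M21 transcripts on GRCm38, are 167 bases long and lie on the plus strand, the PKM1 exon at chr9:59675029-59675195 and the PKM2 exon at chr9:59675568-59675734. Capitals mark the 64 positions at which the exons differ, and the other 103 positions are the same.
PKM1 exon: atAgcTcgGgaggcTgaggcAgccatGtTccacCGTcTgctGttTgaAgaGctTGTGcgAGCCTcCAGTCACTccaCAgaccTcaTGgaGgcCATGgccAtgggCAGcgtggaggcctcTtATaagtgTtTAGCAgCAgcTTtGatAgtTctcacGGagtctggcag
PKM2 exon: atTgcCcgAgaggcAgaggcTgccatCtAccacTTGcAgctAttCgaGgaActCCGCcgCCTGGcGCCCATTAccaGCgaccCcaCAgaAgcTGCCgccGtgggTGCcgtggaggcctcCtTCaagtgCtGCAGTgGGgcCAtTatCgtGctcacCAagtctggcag
The deposited counts are summed over the gene, so they do not separate reads of these exons and say nothing of how much PKM1 or PKM2 was made.

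The libraries held 22844993 to 34995038 counts, and the iCre library was the deeper one in 4 of 4 pairs, by 1.17 to 1.21 times. Levels are given as CPM, counts scaled to the normalised size of each library. Fibroblast genes were abundant in all 8 libraries, with Col1a1 at 4760 to 14300 CPM and Pdgfra at 606 to 1750 CPM, while the endothelial gene Pecam1 stayed at or under 0.774 CPM and the cardiomyocyte gene Myh6 at or under 0.529 CPM. Leukocyte genes were present, with Ptprc at 0.704 to 14.9 CPM. Leukocyte and macrophage markers summed to 121 to 786 CPM in LacZ and 121 to 1130 CPM in iCre. Nos2, the inducible nitric oxide synthase, checks that the libraries titled for IL-1b were stimulated, though not by which factor. It stood at 274, 174, 296 and 283 CPM in LacZ numbers 1 to 4 and at 265, 232, 349 and 258 CPM in iCre, against means of 0.433 and 0.518 CPM in SS. Between the vectors Nos2 differed by 0.12 ± 0.10 (SE, adjusted p = 0.724) on the log2 scale, with the iCre library higher in 2 of 4 pairs.

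Pkm was lower with iCre in every pair. In LacZ numbers 1 to 4 it was at 2290, 1950, 2410 and 1320 CPM, and in iCre at 1640, 1310, 1690 and 933 CPM. The 4 pair differences were alike, although the groups overlap because number 4 was low in both arms. The log2 difference was -0.51 ± 0.07 (SE, 4 pairs), a level 0.701 times that of LacZ, with an adjusted p of 0.181 over all genes (edgeR's quasi-likelihood test within pairs, Benjamini-Hochberg adjusted), so it did not pass the threshold of 0.05. Pkm was chosen beforehand as the targeted gene, and its unadjusted p in that test was 5.99e-05. With no filter on low counts the adjusted p was 0.00387 and with DESeq2 8.43e-12, at log2 differences of -0.50 and -0.52. In the fit of all 32 libraries the vector difference of Pkm was -0.57 in SS, -0.48 under bFGF, -0.52 under IL-1b and -0.48 under TGFb. The adjusted p of edgeR's quasi-likelihood test there were 0.0176, 0.0284, 0.0623 and 0.0159, in the same order. The difference under IL-1b departed from the mean of the other 3 by -0.01 ± 0.09 (SE, adjusted p = 0.998). For comparison across conditions, which was not tested here, the LacZ mean of Pkm was 1990 ± 488 CPM (SD, n = 4) with IL-1b and 786 ± 247 in SS.

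A second count lies inside the Pkm locus. Gm49759 (chr9:59672814-59676700, plus strand, GRCm38), an unconfirmed transcript model within Pkm (chr9:59656368-59679375, plus strand), spans both alternative exons. It was chosen after its values were seen. It stood at 17.6, 17.6, 19.2 and 13.6 CPM in LacZ numbers 1 to 4 and at 10.1, 10.1, 10.5 and 8.95 CPM in iCre, so that all 4 iCre libraries lay under all 4 LacZ libraries. The log2 difference was -0.76 ± 0.09 (SE, adjusted p = 0.146), a level 0.591 times that of LacZ. Reads of these overlapping genes on the same strand may not be separable, and the counting mode, which decides whether a read in both is dropped, is not given in the sources used here.

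Over all genes, 1 rose and 0 fell with iCre under IL-1b. Of 15127 genes tested, 0.00661% rose and 0% fell at an adjusted p under 0.05, and 1304 (8.62%) had an unadjusted p under 0.05, 533 (3.52%) of them higher and 771 (5.1%) lower with iCre. DESeq2 called 51 genes (12 higher and 39 lower), and edgeR with no filter on low counts called 31 (11 higher and 20 lower). Scaling by total counts turned the split of unadjusted calls to 1146 higher and 467 lower. By sign, 7497 genes (49.6%) lay above 0 and 7630 (50.4%) below. Direction was the same in 4 of 4 pairs for 1247 genes higher with iCre (8.24%) and 1430 lower (9.45%), the background against which the gene lists are read. The lists were chosen with earlier results of these data known, and their members share the same libraries. Shares of a list beside this background are therefore descriptions and not tests.

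The gene that rose was H19 (chr7:142575529-142578143, minus strand), an imprinted long noncoding RNA expressed in fetal tissue and largely silenced after birth. It was at 1.62, 1.75, 2.81 and 63.4 CPM in LacZ numbers 1 to 4 and at 3.63, 3.5, 7.36 and 128 CPM in iCre. Number 4 stood far above the other 3 in both arms, and within each number the iCre library was the higher one, by 1.13, 0.97, 1.36 and 1.02 on the log2 scale (fitted difference 1.14 ± 0.09 (SE, adjusted p = 0.0296)). The call was lost when any single number was left out (adjusted p 0.0521 to 0.299), without the replicate block and when the spread was pooled over all 32 libraries (adjusted p = 0.763). In the other conditions H19 was lower with iCre in pair 1 of SS and in pairs 1 and 2 of bFGF and of TGFb. Its vector difference under IL-1b departed from the mean of the other 3 conditions by 0.41 ± 0.32 (SE, adjusted p = 0.941). A few draws of libraries with no changed gene were simulated with gene-wise dispersions as estimated here. In most of them this fit also called a gene or more, so a single call such as H19 lies within what unchanged data gave in that setting. With dispersions on the trend, in a simulation that also held changed genes, calls on unchanged genes did not exceed the nominal rate. Whether H19 is such a call was not tested. H19 overlaps the microRNA gene Mir675 and a pair of opposite-strand genes, whose reads may be shared with it.

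The genes of smallest p on the higher side, among those higher in 4 of 4 pairs, did not pass the threshold. Higd1a, a mitochondrial protein induced by hypoxia, was at 41.7, 39.9, 34.1 and 23.2 CPM in LacZ numbers 1 to 4 and at 59.4, 52.2, 49.5 and 29 CPM in iCre, a log2 difference of 0.45 ± 0.06 (SE, adjusted p = 0.194). Fam162a, a HIF-responsive mitochondrial protein, was at 136, 132, 101 and 72.4 CPM in LacZ and 168, 166, 143 and 98.6 CPM in iCre (log2 difference 0.40 ± 0.06 (SE, adjusted p = 0.203)). In both genes number 4 was lowest in each arm and each iCre library was above its partner. Slc16a3, the lactate exporter MCT4, differed by 0.32 ± 0.06 (SE, adjusted p = 0.444), and the glycolytic enzyme gene Tpi1 by 0.30 ± 0.06 (SE, adjusted p = 0.444). Others with the smallest p on this side were Edil3, an integrin-binding matrix protein (1.20 ± 0.17 (SE, adjusted p = 0.2)), the interferon-responsive Ifi27 (0.48 ± 0.07 (SE, adjusted p = 0.235)), the membrane protein gene Stom (0.31 ± 0.05 (SE, adjusted p = 0.256)), the cadherin gene Dchs1 (0.93 ± 0.17 (SE, adjusted p = 0.413)) and Acat1, a mitochondrial acetyl-CoA acetyltransferase (0.29 ± 0.06 (SE, adjusted p = 0.444)). Edil3 and Dchs1 were mostly expressed in number 4, at 14.1 and 34.7 CPM in its LacZ library and at or under 0.668 and 3.04 CPM in the other 3.

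On the lower side the smallest p among genes not passing was that of Aldh1a2, which makes retinoic acid. It was at 347, 287, 364 and 208 CPM in LacZ numbers 1 to 4 and at 245, 179, 233 and 122 CPM in iCre. Each iCre library was lower than its partner, with a log2 difference of -0.64 ± 0.06 (SE, adjusted p = 0.0625). Aldh1a2 is also a marker of mesothelium and epicardium. The other 9 genes of that list summed to 4.67 to 7.93 CPM in LacZ and 4.49 to 6.93 CPM in iCre, with Wt1 at or under 0.415 CPM. Of the 4 genes of the list tested, 2 were above 0 and 2 below. Those below were Aldh1a2 and Upk3b, which was lower in 4 of 4 pairs (-0.75 ± 0.20 (SE, adjusted p = 0.497)). The part of such cells in the Aldh1a2 difference was not tested. Icam1, the leukocyte adhesion molecule induced by IL-1b, was at 326, 417, 251 and 331 CPM in LacZ and 245, 302, 187 and 245 CPM in iCre. The pair differences of Icam1 lay within a narrow range, -0.41, -0.47, -0.43 and -0.43 on the log2 scale, and the fitted difference was -0.43 ± 0.05 (SE, adjusted p = 0.181). Its vector difference was -0.56 in SS, -0.59 under bFGF, -0.43 under IL-1b and -0.39 under TGFb, with a difference from the mean of the other 3 of 0.08 ± 0.09 (SE, adjusted p = 0.957). The collagen-binding proteoglycan gene Fmod stood at 46.4, 93.1, 40.1 and 25.1 CPM in LacZ and 31.8, 47.8, 22.6 and 18.5 CPM in iCre (-0.69 ± 0.09 (SE, adjusted p = 0.2)). The remaining genes of smallest p were the potassium channel gene Kcnj15 (-0.50 ± 0.07 (SE, adjusted p = 0.2)), the secretory granule protein gene Ptprn (-0.42 ± 0.06 (SE, adjusted p = 0.203)), Rhbdf2, a partner of the TNF-releasing protease ADAM17 (-0.45 ± 0.07 (SE, adjusted p = 0.213)), Lrrc32, which holds latent TGF beta at the cell surface (-0.42 ± 0.06 (SE, adjusted p = 0.223)), the actin-severing Scin (-0.69 ± 0.11 (SE, adjusted p = 0.237)) and the receptor kinase gene Mst1r (-0.49 ± 0.08 (SE, adjusted p = 0.319)). All of them were lower in 4 of 4 pairs.

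**Figure D1:**
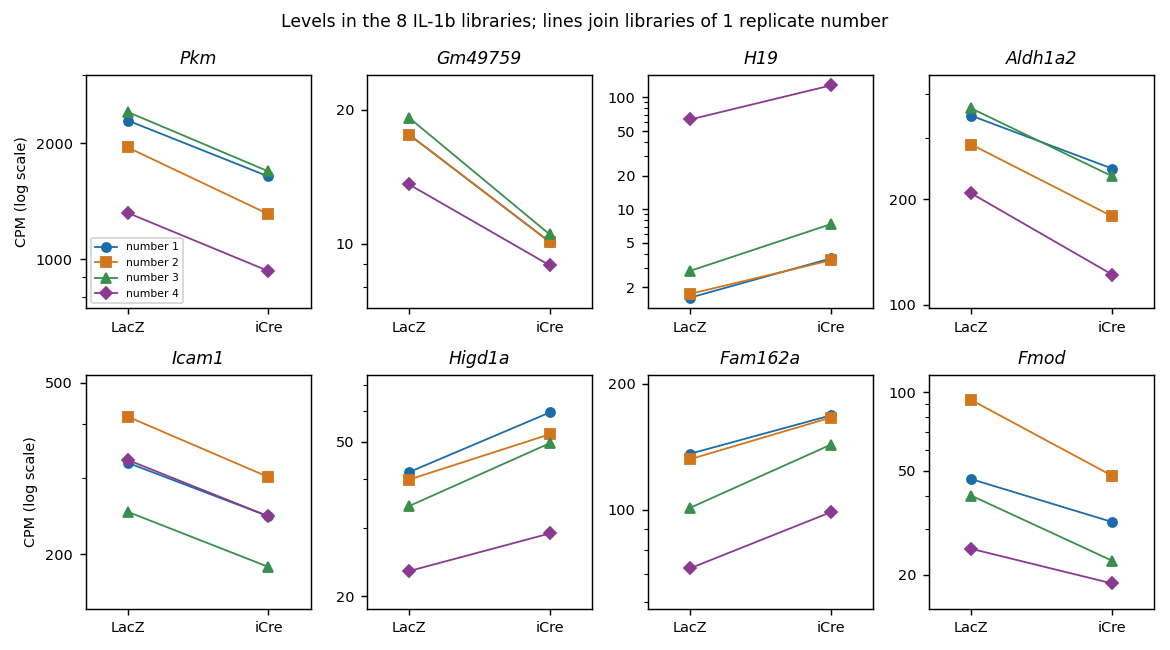
Level of 8 genes in the 8 IL-1b libraries, in CPM on a log axis; each line joins the LacZ and the iCre library of 1 replicate number (numbers 1 and 2 of Gm49759 nearly coincide). Pkm, Gm49759, Aldh1a2, Icam1 and Fmod were lower and H19, Higd1a and Fam162a higher with iCre in 4 of 4 pairs, and H19 was at 63.4 and 128 CPM in number 4.

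Upstream of pyruvate kinase, most glycolytic genes lay above 0 while Pkm lay below. Of 9 tested genes of lower glycolysis, 0 passed the test, 8 were above 0 and 5 were higher in 4 of 4 pairs, with a median log2 difference of 0.20 against 0 over all genes. Tpi1, triose phosphate isomerase, was at 516, 464, 445 and 299 CPM in LacZ numbers 1 to 4 and at 644, 539, 562 and 368 CPM in iCre. Eno1, the enolase that makes phosphoenolpyruvate, was at 1330, 1240, 1200 and 758 CPM in LacZ and 1560, 1370, 1480 and 894 CPM in iCre (0.24 ± 0.06 (SE, adjusted p = 0.502)). The neuronal-type enolase gene Eno2 differed by 0.26 ± 0.08 (SE, adjusted p = 0.528), the phosphoglycerate kinase gene Pgk1 by 0.19 ± 0.07 (SE, adjusted p = 0.546), the mutase gene Pgam1 by 0.20 ± 0.07 (SE, adjusted p = 0.528) and Gapdh by 0.14 ± 0.07 (SE, adjusted p = 0.601). The aldolase gene Aldoa was level (0.02 ± 0.06 (SE, adjusted p = 0.945)), and Bpgm, which makes the side product 2,3-bisphosphoglycerate, was the member below 0 (-0.14 ± 0.12 (SE, adjusted p = 0.75), named after its values were seen). The median was 0.18 to 0.23 when any single number was left out, and 0.24 with scaling by total counts.

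Glucose uptake and upper glycolysis were closer to the background. Of 12 tested genes 10 were above 0, 1 was higher in 4 of 4 pairs and the median was 0.09. That gene was Slc2a1, the glucose transporter GLUT1, at 124, 111, 128 and 88.1 CPM in LacZ numbers 1 to 4 and 143, 125, 138 and 114 CPM in iCre (0.22 ± 0.06 (SE, adjusted p = 0.502)), and the phosphofructokinase gene Pfkp differed by 0.20 ± 0.08 (SE, adjusted p = 0.568). Of 20 genes of pyruvate and lactate fate 14 were above 0 and 5 were higher in 4 of 4 pairs, with a median of 0.05. Pdk1, the kinase that shuts off pyruvate dehydrogenase, was at 75.8, 72.8, 54 and 37 CPM in LacZ and 92, 82.4, 78.4 and 43.8 CPM in iCre (0.32 ± 0.07 (SE, adjusted p = 0.45)). Among the lactate genes Slc16a3 was at 74.2, 71.5, 54.7 and 30.7 CPM in LacZ and 87.9, 85.8, 77.5 and 35.9 CPM in iCre, with number 4 lowest in both arms. The dehydrogenase subunit genes Ldhb and Ldha differed by 0.30 ± 0.08 (SE, adjusted p = 0.497) and 0.11 ± 0.06 (SE, adjusted p = 0.662). The pentose phosphate list (9 genes) had a median of -0.02, which turned to 0.03 with scaling by total counts, and its smallest p was that of Taldo1, transaldolase (-0.21 ± 0.08 (SE, adjusted p = 0.557)). The 10 serine and one-carbon genes had a median of 0.02, with the serine synthesis gene Psat1 at -0.20 ± 0.08 (SE, adjusted p = 0.557).

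Mitochondrial genes encoded in the nucleus lay slightly above 0 in most members. Of 19 TCA cycle genes 0 passed the test, 17 were above 0 and 11 were higher in 4 of 4 pairs, and the median was 0.08, which became 0.13 with scaling by total counts. The 4 pair medians were close, at 0.07, 0.09, 0.07 and 0.09. The succinate dehydrogenase subunit genes Sdhb, Sdhc and Sdhd differed by 0.12 ± 0.05 (SE, adjusted p = 0.582), 0.12 ± 0.05 (SE, adjusted p = 0.575) and 0.13 ± 0.05 (SE, adjusted p = 0.557), and Suclg1, a subunit of succinyl-CoA synthetase, by 0.16 ± 0.06 (SE, adjusted p = 0.546). Of 26 nuclear genes of the respiratory chain 24 were above 0 and 8 higher in 4 of 4 pairs (median 0.06). Ndufv1, a complex I subunit, was at 57, 58.3, 55.7 and 65.7 CPM in LacZ and 67.4, 66.9, 64.5 and 73 CPM in iCre (0.21 ± 0.05 (SE, adjusted p = 0.457)), and the ATP synthase subunit gene Atp5c1 differed by 0.13 ± 0.05 (SE, adjusted p = 0.557). The 13 genes of the mitochondrial genome had a median of 0.05, and their pair medians ran from -0.20 to 0.22.

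Targets of the hypoxia-inducible factor HIF outside glycolysis leaned the same way. Of 13 tested genes 12 were above 0, 6 were higher in 4 of 4 pairs and 6 had an unadjusted p under 0.05. Over all genes 8.24% were higher in 4 of 4 pairs and 3.52% were higher at that p. The list's median was 0.15, with pair medians of 0.14, 0.02, 0.27 and 0.05. Bnip3, a mitophagy receptor, was at 151, 134, 112 and 66.3 CPM in LacZ numbers 1 to 4 and at 200, 154, 157 and 72.8 CPM in iCre (0.32 ± 0.07 (SE, adjusted p = 0.45)). The ankyrin repeat gene Ankrd37 differed by 0.79 ± 0.25 (SE, adjusted p = 0.528), with a pair 2 difference of 0.02, and the histone demethylase gene Kdm3a by 0.15 ± 0.05 (SE, adjusted p = 0.528). Vegfa, the endothelial growth factor gene, was the member below 0 (-0.16 ± 0.07 (SE, adjusted p = 0.591), named after its values were seen). The core letters of the HIF binding site, ACGTG on either strand, were found in 11 of 18 RefSeq windows of 250 bases before a start of 13 genes of this list (61.1%). Over all 32851 such windows the share was 16.6%. It was 4 of 14 windows (28.6%) for the lower glycolysis list and 8 of 18 (44.4%) for glucose uptake and upper glycolysis. Genes of the HIF list with a match included Bnip3, Ankrd37 and Vegfa, the member below 0, and did not include Higd1a or Kdm3a. In lower glycolysis they were Aldoa, Pgam1 and Pgk1, and not Tpi1 or Eno1. Whether a match goes with the vector difference was not tested. A match is a run of letters, not a site shown to be bound. The Bnip3 window (GRCm38.p6, chr7:138909507-138909756, minus strand) is given as the example of the list, with the match in capitals, where the core on both strands overlaps as a palindrome.
Bnip3 upstream window: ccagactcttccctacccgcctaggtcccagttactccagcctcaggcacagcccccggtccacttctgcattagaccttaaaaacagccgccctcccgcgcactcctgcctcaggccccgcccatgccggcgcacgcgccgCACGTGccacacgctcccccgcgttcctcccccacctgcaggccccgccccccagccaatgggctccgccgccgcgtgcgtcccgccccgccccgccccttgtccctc

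Sterol and fatty acid synthesis genes lay mostly below 0. Of 25 genes of cholesterol synthesis and uptake 0 passed the test, 22 were below 0 and 5 were lower in 4 of 4 pairs, with a median of -0.22. Pair 2 did not share this, as its median was 0.09 beside -0.27, -0.48 and -0.25 in pairs 1, 3 and 4. Sc5d, a late sterol desaturase, was at 63.9, 78, 55.4 and 86.5 CPM in LacZ and 54.8, 70.2, 47.5 and 73.3 CPM in iCre (-0.20 ± 0.05 (SE, adjusted p = 0.467)). Levels of other members differed widely between numbers, as Idi1, isopentenyl diphosphate isomerase, was at 7.2, 21, 2.81 and 31.3 CPM in LacZ and 5.29, 20.6, 1.36 and 22 CPM in iCre (-0.43 ± 0.15 (SE, adjusted p = 0.528)). The synthase gene Hmgcs1 and the demethylase gene Cyp51 differed by -0.29 ± 0.08 (SE, adjusted p = 0.528) and -0.39 ± 0.14 (SE, adjusted p = 0.557). All 11 tested fatty acid synthesis genes were below 0 and 1 was lower in 4 of 4 pairs (median -0.16, and -0.08 without number 4). That gene was Scd1, the stearoyl-CoA desaturase (-0.38 ± 0.10 (SE, adjusted p = 0.497)), and its paralog Scd2 and the acetyl-CoA synthetase gene Acss2 differed by -0.36 ± 0.14 (SE, adjusted p = 0.564) and -0.29 ± 0.11 (SE, adjusted p = 0.546).

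**Figure D2:**
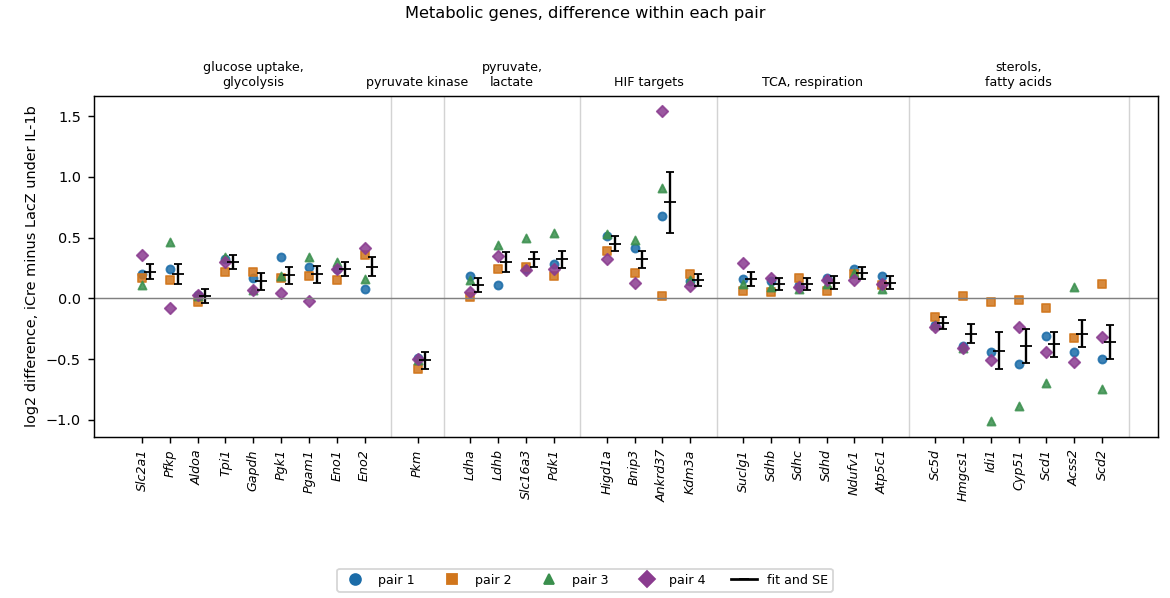
Log2 difference, iCre minus LacZ under IL-1b, of metabolic genes; coloured points are the 4 pairs and black marks the fitted difference with its SE. By the fit, Pkm lies at -0.51, the genes of glycolysis shown lie between 0.02 and 0.30, and the sterol and fatty acid genes shown lie below 0.

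Genes of IL-1 signalling lay on both sides of 0. Of 18 genes of the IL-1 receptor and its proximal signalling 0 passed the test, 12 were below 0, 2 were higher and 3 lower in 4 of 4 pairs, and the median was -0.05. The receptor gene Il1r1 was at 303, 298, 225 and 270 CPM in LacZ and 272, 266, 207 and 207 CPM in iCre (-0.20 ± 0.06 (SE, adjusted p = 0.528)), and the decoy receptor gene Il1r2, expressed at 0.628 to 2.26 CPM, differed by -0.86 ± 0.29 (SE, adjusted p = 0.528). The kinase gene Irak2, downstream of the receptor, differed by 0.23 ± 0.08 (SE, adjusted p = 0.532), and Ikbkg, the scaffold of the NF-kB-activating kinase, by -0.21 ± 0.08 (SE, adjusted p = 0.557). Map3k7, which encodes the TAK1 named in the protocol text, was at 122, 128, 138 and 109 CPM in LacZ and 124, 117, 125 and 88.2 CPM in iCre (-0.13 ± 0.06 (SE, adjusted p = 0.593)). The 14 NF-kB subunit and inhibitor genes had a median of -0.03, which turned to 0.02 with scaling by total counts.

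CXC chemokine genes, several of which encode neutrophil attractants, leaned lower. Of 10 tested CXC and CX3C chemokine genes 7 were below 0 and 3 were lower in 4 of 4 pairs, with a median of -0.25. Cxcl5 was at 2690, 2510, 1780 and 2390 CPM in LacZ numbers 1 to 4 and at 1880, 2050, 1700 and 1900 CPM in iCre (-0.30 ± 0.09 (SE, adjusted p = 0.521)). The low-level Cxcl3 was at 2.14, 1.57, 5.17 and 0.846 CPM in LacZ and 1.52, 0.456, 1.08 and 0.366 CPM in iCre (-1.43 ± 0.33 (SE, adjusted p = 0.457)), and Cxcl16 differed by -0.25 ± 0.11 (SE, adjusted p = 0.575). Cxcl1 was at 1290, 1200, 1270 and 565 CPM in LacZ and 1380, 1160, 1190 and 299 CPM in iCre (-0.23 ± 0.17 (SE, adjusted p = 0.711)), where pair 4, at -0.92, stood apart from pairs near 0. The CC chemokine genes (11 tested) had a median of -0.11, which was 0.03 without number 4, with the monocyte attractant Ccl2 at -0.11 ± 0.08 (SE, adjusted p = 0.702) and Ccl20 at 0.77 ± 0.32 (SE, adjusted p = 0.572). Among 16 cytokine and colony-stimulating factor genes (median -0.08, and 0.07 without number 3) 2 were lower in 4 of 4 pairs. These were Il34 (-0.32 ± 0.10 (SE, adjusted p = 0.528)) and Csf1 (-0.25 ± 0.10 (SE, adjusted p = 0.568)), which share the macrophage growth factor receptor CSF1R, while Il6 differed by -0.11 ± 0.14 (SE, adjusted p = 0.844).

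Enzymes of inflammatory mediators leaned higher. Of 11 tested genes of nitric oxide, prostaglandin and itaconate synthesis 8 were above 0, 3 were higher and 1 lower in 4 of 4 pairs, and the median was 0.12. Pla2g4a, the phospholipase that frees arachidonic acid, was at 60.8, 68.9, 69 and 104 CPM in LacZ and 78.9, 88.3, 79.5 and 115 CPM in iCre (0.27 ± 0.06 (SE, adjusted p = 0.45)). Ptgs2, the inducible cyclooxygenase, was at 33.6, 32.7, 49.5 and 84.3 CPM in LacZ and 43.2, 52.5, 50.8 and 120 CPM in iCre (0.40 ± 0.10 (SE, adjusted p = 0.502)). The constitutive cyclooxygenase gene Ptgs1 and the itaconate enzyme gene Acod1 differed by 0.50 ± 0.19 (SE, adjusted p = 0.568) and 0.49 ± 0.19 (SE, adjusted p = 0.562), each with 1 pair below 0. Of 9 acute-phase and antimicrobial genes 2 were higher in 4 of 4 pairs, the protease inhibitor gene Slpi (1.10 ± 0.26 (SE, adjusted p = 0.457)) and Saa1 (0.96 ± 0.38 (SE, adjusted p = 0.564)), both at low levels, and the list's median of 0.13 became -0.06 without number 3. Among proteases and their inhibitors (23 genes, median -0.02) the plasminogen activator genes had opposite signs, with Plau at 0.59 ± 0.16 (SE, adjusted p = 0.502) and Plat at -0.27 ± 0.09 (SE, adjusted p = 0.528), and Adamts1 and Mmp12 differed by 0.29 ± 0.08 (SE, adjusted p = 0.497) and 0.46 ± 0.15 (SE, adjusted p = 0.528). The complement list (10 genes) had a median of -0.04, which was 0.01 with scaling by total counts, and its C1ra was at 0.26 ± 0.09 (SE, adjusted p = 0.528).

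**Figure D3:**
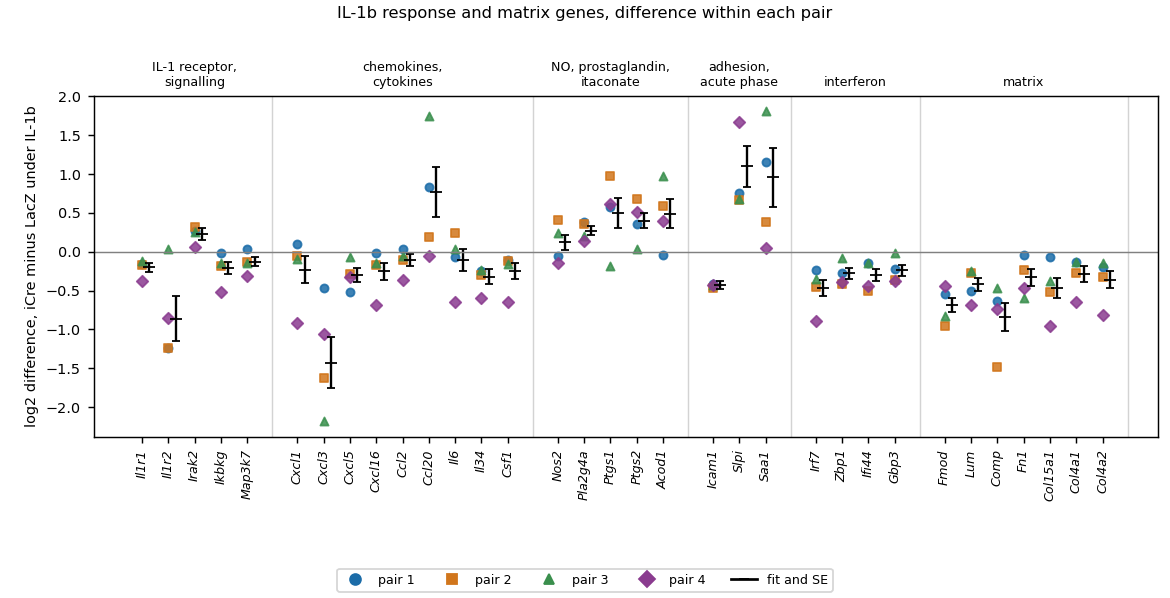
Log2 difference, iCre minus LacZ under IL-1b, of IL-1b response, interferon and matrix genes; coloured points are the 4 pairs and black marks the fitted difference with its SE. Icam1 has the tightest pairs of those shown, at -0.43, while the pairs of Cxcl3, Ccl20, Slpi and Saa1, among others, spread over more than 1 log2 unit.

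Interferon-stimulated genes lay below 0 in the fit, with pairs that did not all go one way. Of 30 tested genes 0 passed the test, 29 were below 0, 7 were lower in 4 of 4 pairs and 11 had an unadjusted p under 0.05. Over all genes 9.45% were lower in 4 of 4 pairs and 5.1% were lower at that p. The list's median was -0.17. The pair medians were -0.16, -0.38, 0.13 and -0.43, and the list's median was -0.10 without number 4 and -0.32 without number 3. Irf7, the interferon regulatory factor, was at 416, 556, 342 and 262 CPM in LacZ and 354, 408, 268 and 141 CPM in iCre (-0.47 ± 0.10 (SE, adjusted p = 0.457)). The nucleic acid sensor gene Zbp1, Ifi44 and the GTPase gene Gbp3 differed by -0.28 ± 0.07 (SE, adjusted p = 0.457), -0.30 ± 0.08 (SE, adjusted p = 0.476) and -0.24 ± 0.07 (SE, adjusted p = 0.528). The interferon-responsive Ifi27 is not in the list and was higher with iCre in 4 of 4 pairs (0.48 ± 0.07 (SE, adjusted p = 0.235)). Leukocyte and macrophage markers varied between pairs too, with medians of 0.02, -0.51, 0.59 and 0.07 over 14 markers. Their summed level was 121 to 786 CPM in LacZ and 121 to 1130 CPM in iCre with 0 markers at 0 in all 8 libraries, and their part in the interferon values was not tested.

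Collagens and other matrix genes lay below 0 in most members. Of 17 collagen genes 0 passed the test, 15 were below 0 and 6 were lower in 4 of 4 pairs (median -0.19). The basement membrane genes Col4a1 and Col4a2 differed by -0.29 ± 0.10 (SE, adjusted p = 0.535) and -0.36 ± 0.11 (SE, adjusted p = 0.528), and Col15a1 was at 1290, 1100, 1520 and 336 CPM in LacZ and 1230, 771, 1170 and 174 CPM in iCre (-0.47 ± 0.13 (SE, adjusted p = 0.513)). Of 23 other matrix and crosslinking genes 19 were below 0 and 7 were lower in 4 of 4 pairs (median -0.19). Lum, a collagen-binding proteoglycan like Fmod, was at 145, 204, 90.6 and 147 CPM in LacZ and 103, 168, 76 and 90.9 CPM in iCre (-0.42 ± 0.08 (SE, adjusted p = 0.444)), and Comp and the fibronectin gene Fn1 differed by -0.84 ± 0.18 (SE, adjusted p = 0.45) and -0.33 ± 0.11 (SE, adjusted p = 0.528). Pair 4 had the lowest medians in both lists, -0.49 and -0.47, and without number 4 the medians were -0.11 and -0.08.

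Contractile and TGF beta genes also lay below 0 in most members. Of 17 contractile myofibroblast genes 12 were below 0 and 4 were lower in 4 of 4 pairs (median -0.15, and -0.04 without number 4). Pair 3 went the other way, with a median of 0.36 beside -0.12, -0.24 and -0.28 in pairs 1, 2 and 4. The actin crosslinker gene Flna was at 1070, 1170, 1340 and 1300 CPM in LacZ and 957, 992, 1080 and 1070 CPM in iCre (-0.24 ± 0.06 (SE, adjusted p = 0.497)), and the smooth muscle protein gene Tagln differed by -0.27 ± 0.08 (SE, adjusted p = 0.528). Among 19 TGF beta targets (16 below 0, 3 lower in 4 of 4 pairs, median -0.11) the inhibitory Smad6 and the ligand gene Tgfb1 differed by -0.32 ± 0.09 (SE, adjusted p = 0.51) and -0.24 ± 0.07 (SE, adjusted p = 0.514). Of 18 genes of resting fibroblast identity 15 were below 0 and 1 was lower in 4 of 4 pairs (median -0.17, with -0.06, 0.03, -0.12 and -0.64 in pairs 1 to 4), among them the matrix protein gene Dpt (-0.26 ± 0.08 (SE, adjusted p = 0.528)), while the ferritin receptor gene Scara5 was above 0 (0.51 ± 0.14 (SE, adjusted p = 0.502)).

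**Figure D4:**
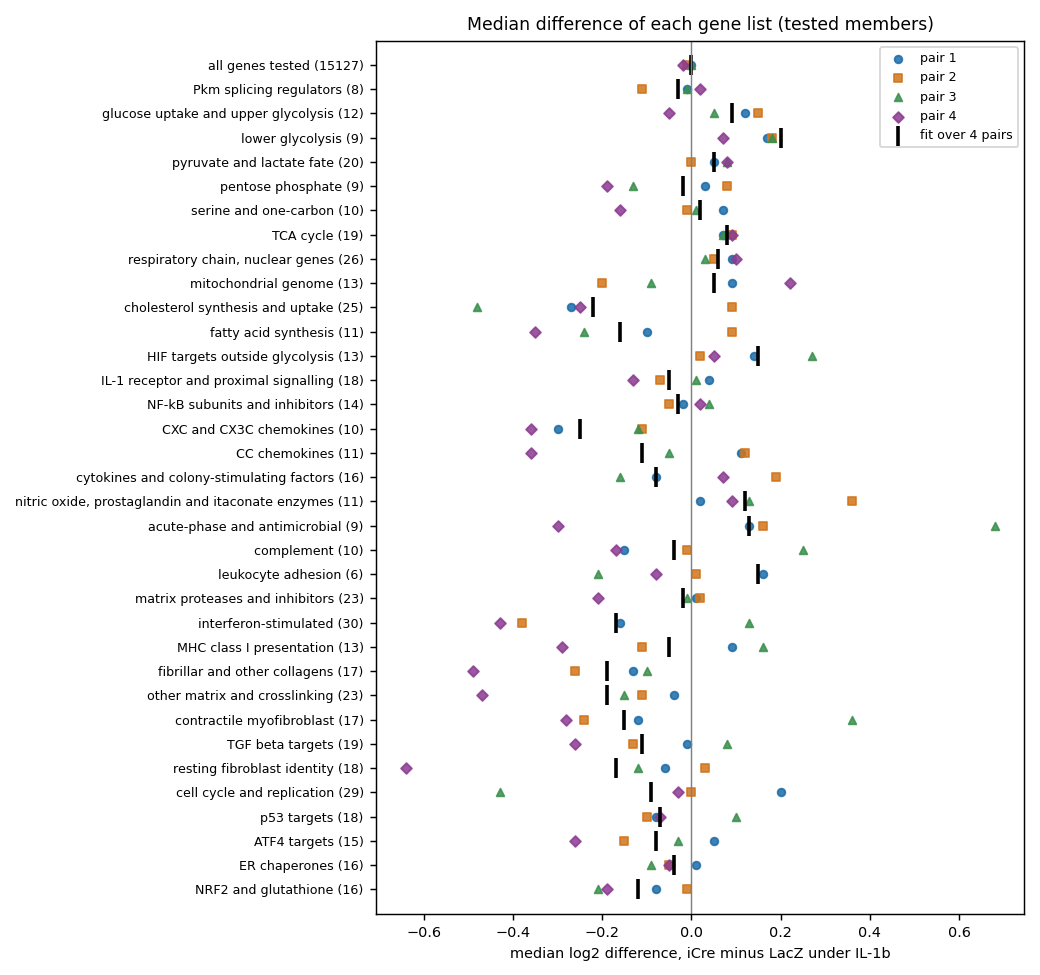
Median log2 difference, iCre minus LacZ under IL-1b, of the gene lists other than cell type markers and of all genes, with the number of genes tested in brackets; coloured points are the medians in each pair and black bars those of the fit. Lower glycolysis (0.20) and HIF targets (0.15) are to the right with 4 of 4 pairs above 0. CXC and CX3C chemokines (-0.25), collagens (-0.19) and other matrix genes (-0.19) are to the left with 4 of 4 pairs below 0. Other lists had 4 of 4 pairs on 1 side too, among them the TCA cycle (0.08) and mediator enzymes (0.12) above 0 and NRF2 (-0.12) below.

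Whether the vector difference under IL-1b departed from that in the other conditions was tested over all 32 libraries. Of 16760 genes, 0 were more positive and 2 (0.0119%) more negative under IL-1b than in the mean of SS, bFGF and TGFb, and 842 (5.02%) had an unadjusted p under 0.05, 279 (1.66%) of them on the positive and 563 (3.36%) on the negative side. Scaling by total counts turned that split to 396 and 416. Against SS alone 0 genes passed in edgeR, 631 (3.76%) had an unadjusted p under 0.05 and DESeq2 called 4. The IL-1b libraries of the first comparison also stand in this one, so the tests share data.

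The genes that passed were Gda and Abcc4. Gda, the guanine deaminase of purine breakdown (chr19:21391307-21473445, minus strand), had a vector difference of 0.52 in SS, 0.51 under bFGF, -0.20 under IL-1b and 0.36 under TGFb. Within the IL-1b pairs it was at 250, 318, 232 and 289 CPM in LacZ and 237, 312, 206 and 201 CPM in iCre, with the iCre library lower in 4 of 4 pairs, while the iCre library was higher in 4 of 4 pairs of SS and of TGFb and in 3 of 4 of bFGF. The contrast was -0.67 ± 0.09 (SE, adjusted p = 0.0313). Abcc4, an exporter of cyclic nucleotides and prostaglandins (chr14:118482692-118706219, minus strand), was at 53.1, 42.4, 90.3 and 45.4 CPM in LacZ and 42.3, 34.8, 59.9 and 27.5 CPM in iCre under IL-1b, lower in 4 of 4 pairs. Its vector difference was 0.10 in SS, -0.11 under bFGF, -0.48 under IL-1b and 0.31 under TGFb, and the contrast -0.59 ± 0.09 (SE, adjusted p = 0.0371). Neither call held when any single number was left out, with scaling by total counts, or without the terms for number, and 4 other genes were called without number 3.

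NRF2 is a transcription factor of the oxidative stress response. Of 16 NRF2 and glutathione genes 0 passed, 14 had a vector difference more negative under IL-1b than in the mean of the other conditions, beside 52.4% of all genes. Of the 16, 11 had an unadjusted p under 0.05 on that side, beside 3.36% of all genes, and the median contrast was -0.25. The list was chosen with earlier results of these data known, so these shares describe it and are not a test. Srxn1, sulfiredoxin, had a contrast of -0.52 ± 0.08 (SE, adjusted p = 0.0555), from a vector difference of 0.41 in SS, 0.31 under bFGF, -0.19 under IL-1b and 0.25 under TGFb. Gclc, the rate-limiting enzyme of glutathione synthesis, had -0.39 ± 0.08 (SE, adjusted p = 0.148), from 0.29 in SS, -0.06 under bFGF, -0.29 under IL-1b and 0.06 under TGFb, and its contrast against SS was -0.59 (adjusted p = 0.0727). Leaving out any single number kept 14 to 16 of the 16 below 0, with medians of -0.18 to -0.35, while the count of 11 was 7 without number 1, 11 without number 2, 6 without number 3 and 10 without number 4. With no replicate block it was 0.

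Under IL-1b itself the same list leaned lower. Of the 16 genes 11 were below 0 and 5 were lower in 4 of 4 pairs (median -0.12). Slc7a11, the cystine importer that feeds glutathione synthesis, was at 53.3, 35.2, 157 and 32.9 CPM in LacZ numbers 1 to 4 and at 42.5, 28.1, 68.4 and 20.6 CPM in iCre (-0.64 ± 0.16 (SE, adjusted p = 0.502)). Gsta3, a glutathione transferase, was at 42.9, 33, 55.4 and 49.6 CPM in LacZ and 27.6, 22, 48.1 and 22.4 CPM in iCre (-0.63 ± 0.14 (SE, adjusted p = 0.467)). The quinone reductase gene Nqo1 differed by -0.21 ± 0.09 (SE, adjusted p = 0.574), the glutathione synthesis subunit gene Gclm by -0.13 ± 0.07 (SE, adjusted p = 0.648) and the peroxiredoxin gene Prdx1 by -0.15 ± 0.08 (SE, adjusted p = 0.635), while Hmox1, heme oxygenase, was above 0 (0.11 ± 0.06 (SE, adjusted p = 0.646)). The core letters of the antioxidant response element, TGACNNNGC on either strand, were found in 4 of 18 windows of 12 genes of the list (22.2%) and in 10.2% of all windows. Genes with a match were Gclm, Gsta3, Prdx1 and Txnrd1. The Gsta3 window (GRCm38.p6, chr1:21240335-21240584, plus strand) is shown with its match in capitals, and this too is a description of letters.
Gsta3 upstream window: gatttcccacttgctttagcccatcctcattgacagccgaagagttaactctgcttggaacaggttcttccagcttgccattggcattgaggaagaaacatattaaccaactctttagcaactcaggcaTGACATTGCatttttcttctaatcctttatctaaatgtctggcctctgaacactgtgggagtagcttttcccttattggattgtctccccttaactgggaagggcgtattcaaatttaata

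**Figure D5:**
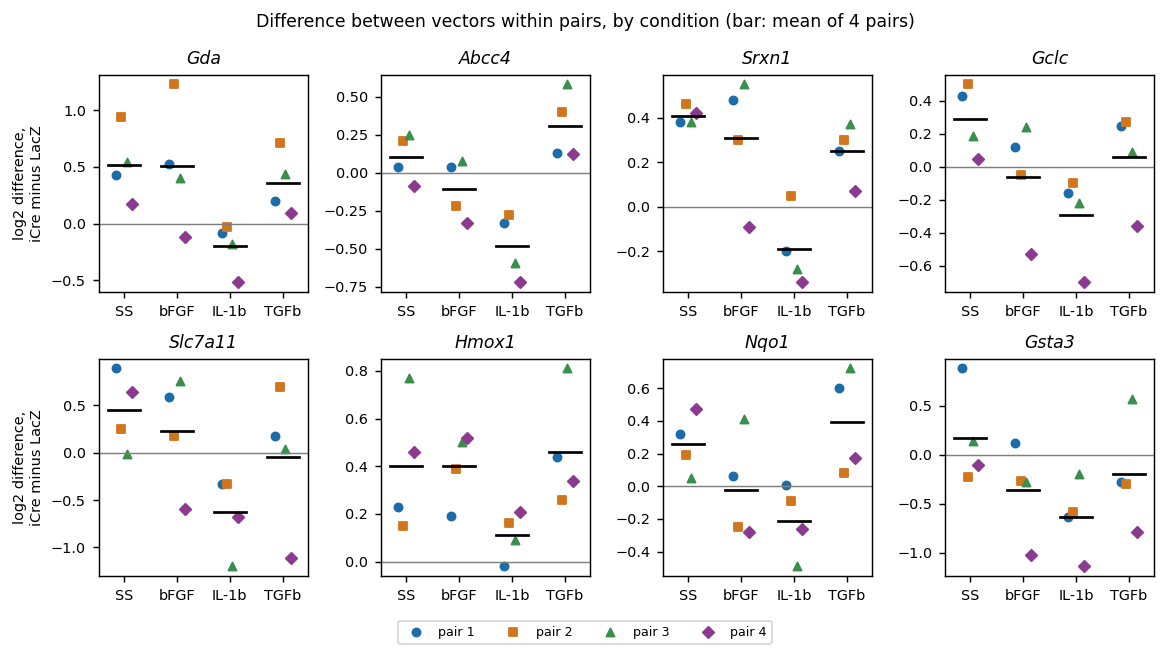
Log2 difference, iCre minus LacZ, in each of 4 pairs in each condition, with a bar at the mean of the pairs, for Gda, Abcc4 and 6 genes of the NRF2 and glutathione list. The IL-1b bar is the lowest of the 4 conditions in each panel, at -0.20 for Gda and -0.48 for Abcc4. Gda and Abcc4 are shown because they passed the contrast of IL-1b with the other conditions, so their low bars follow from that choice. The 6 others were picked from the list with values known. Among list members not shown, the mean was lower under bFGF for Gstm1, and under TGFb for Gss, Txn1 and Gpx4.

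The same contrast was also negative for the interferon genes listed and for most antigen presentation genes. All 30 interferon-stimulated genes of the list lay below 0, with a median of -0.35, and 8 had an unadjusted p under 0.05. The interferon-responsive Ifi27, which is not in the list, went the other way, with a contrast of 0.39 ± 0.10 (SE, adjusted p = 0.611). Over all genes 52.4% lay below 0 and 3.36% had such a p on the negative side. Of 13 genes of MHC class I presentation 12 lay below 0 with a median of -0.19, and 7 had an unadjusted p under 0.05. The median vector difference of the MHC class I list was -0.05 under IL-1b. In the fit of all 32 libraries it was 0.09 in SS, 0.04 under bFGF and 0.24 under TGFb. That of the interferon list was -0.17, 0.09, 0.13 and 0.29, in the same order. These contrasts thus also hold medians above 0 in the other conditions. The interferon count of 8 was 4 without number 4, and the MHC class I count of 7 was 4, 2 and 2 without number 1, 3 or 4 and 3 with scaling by total counts. With no replicate block both counts were 0. Without the terms for a vector difference of each number the counts under 0.05 were 1 and 2, and 10 for the NRF2 list. On the positive side the genes of smallest p were Rhob, a small GTPase (0.30 ± 0.06 (SE, adjusted p = 0.197)), the dendritic cell growth factor gene Flt3l (0.67 ± 0.15 (SE, adjusted p = 0.336)) and the nuclear envelope gene Tmpo (0.33 ± 0.08 (SE, adjusted p = 0.438)), of which 0 passed. Against SS, Flt3l, the thioredoxin-binding Txnip and Ndrg2 led that side, with contrasts of 0.84, 0.58 and 0.43 and adjusted p of 0.538, 0.532 and 0.823.

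Lists of growth, stress and antigen presentation genes had medians of -0.09 to -0.04 under IL-1b. Of 29 cell cycle and replication genes 21 were below 0 and 1 was lower in 4 of 4 pairs, and the median of -0.09 became 0.11 without number 3, whose own pair median was -0.43. Of 18 p53 targets 12 were below 0 and 3 were lower in 4 of 4 pairs (median -0.07). Of 16 ER chaperone genes 15 were below 0 and 2 were lower in 4 of 4 pairs, with a small median of -0.04. The 13 genes of MHC class I presentation had a median of -0.05, which was 0.05 without number 4. Of the 15 targets of ATF4, a factor of the amino acid stress response, 11 were below 0, with a median of -0.08, which was 0.03 without number 4, and 4 of them were lower in 4 of 4 pairs. Of these, Slc7a11 also stands in the NRF2 list. Of 6 leukocyte adhesion genes 4 were above 0 (median 0.15), while Icam1 was lower in 4 of 4 pairs. In each of these lists 0 genes passed the test.

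Markers of other cell types were summed in each arm. Cardiomyocyte markers summed to 4.23 to 7.79 CPM in LacZ and 4.55 to 5.65 CPM in iCre, with Nppa at 0 in all 8 libraries, and endothelial markers to 13.8 to 17.6 and 9.35 to 16.2 CPM. Of the 2 cardiomyocyte markers tested, the cardiac troponin gene Tnnt2 differed by -0.85 ± 0.25 (SE, adjusted p = 0.521). The other, the cardiac troponin gene Tnni3, went the other way, at 0.54 ± 0.26 (SE, adjusted p = 0.588). Mural cell markers summed to 466 to 739 CPM in LacZ and 490 to 988 CPM in iCre. Of the 7 tested, 4 were above 0 and 3 below. Among those above, the channel gene Kcnj8 was at 0.158, 0.507, 0.141 and 1.51 CPM in LacZ and 0.297, 1.29, 0.17 and 5.58 CPM in iCre. Kcnj8 differed by 1.44 ± 0.32 (SE, adjusted p = 0.457). In bulk RNA fewer cells of a type and less RNA per cell cannot be told apart. The 8 genes that regulate Pkm splicing had a median of -0.03 (0.02 with scaling by total counts), and 0 of them had an unadjusted p under 0.05.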

How the data were processed

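Poly(A) RNA libraries were analysed as raw counts per gene, as the authors deposited them, with no normalization. Per the labels' protocols RNA was isolated with the RNeasy Micro kit and libraries were made with NEBNext Ultra II. The submitters' processing notes name FastQC 0.10.1, HTSeq 0.10.0 and mm10/GRCm38. Which aligner, strand setting, counting mode and annotation they used is not given in the sources used here. Of 55414 gene IDs 52081 (99.75% of the counts) matched a symbol in GENCODE M21. Coordinates come from M21 and promoter windows from RefSeq (GRCm38.p6). Each column matched 1 sample, and 0 columns were left without one.

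The 8 IL-1b libraries were fitted with the quasi-likelihood model of edgeR 4.0.16 in R 4.3.3 (robust dispersion, TMM scaling, genes kept by filterByExpr per group), taking the replicate number as a block (3 residual degrees of freedom). Tests were two-sided, with p adjusted by Benjamini-Hochberg over 15127 genes and a threshold of 0.05. An exact sign-flip test over 4 pairs could not go below 0.125. Same-numbered IL-1b libraries deviated together from their group means (r = 0.536, 0.468, 0.661 and 0.812; the lowest over 64 such pairs in the compared groups was 0.164), so the numbers pair the libraries, as seen in the data and not stated in the labels. The difference from other conditions was fitted on 32 libraries and 16760 genes in a model with 1 block per pair, a vector difference per number and a vector difference per condition. CPM use TMM library sizes over 32 libraries, and pair differences are log2 CPM with a prior count of 2. Fits were tested on simulated data, where the 8-library fit with gene-wise dispersions made more calls on unchanged genes than its nominal rate when the dispersions were as estimated here, and not when they followed the trend. No 2 of the 8 libraries agreed within sampling noise: chi-square per degree of freedom was at least 9.1 over 28 pairs.

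The members and the 40 gene lists (609 entries) were chosen with earlier results of these data known. Genes named are Pkm, Nos2, genes that passed or, filling to 10 a direction, those of smallest p whose average log2 CPM reached 1 and whose direction was the same in 4 pairs, up to 4 genes of smallest p per list, members of the glycolysis, pyruvate, IL-1 signalling, chemokine, cytokine and cholesterol lists, and up to 6 genes a direction for a contrast (3 where none passed). Predicted genes and unnamed IDs are otherwise not named. Other members of the NRF2 list were named for their promoter match or as its best known targets, after values were seen. Alternatives were no block, all 32 libraries, RLE factors, total counts, no filter, DESeq2 1.42.0 and leaving out each number. Plots used Python 3.11.15 and matplotlib 3.10.9.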

Additional observations from a re-analysis of the deposited data

Results flagged for a closer look

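In 10 of 226 groups of 4 libraries (the 113 genes named, in each arm) 1 library stood apart from the other 3, where chance alone flags about 1 in 20. Number 4 was the library apart for H19 in LacZ (63.4 CPM, high), Edil3 in LacZ (14.1 CPM, high), Slc16a3 in iCre (35.9 CPM, low), Pgk1 in LacZ (316 CPM, low), Cxcl1 in both arms (565 CPM in LacZ and 299 CPM in iCre, low), Plat in iCre (82.1 CPM, low) and Ifi44 in iCre (92.3 CPM, low). Number 2 was apart for Nos2 in LacZ (174 CPM, low) and number 3 for Atp5c1 in LacZ (105 CPM, high). The vector difference under IL-1b departed from the mean of the other 3 conditions, by the tested contrast, for Gda (-0.67) and Abcc4 (-0.59).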

How the results depend on the processing

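The count of 1 gene called under IL-1b became 0 with no replicate block, 0 with all 32 libraries and a pair block, 0 to 0 when any 1 number was left out, 31 with no filter on low counts and 51 with DESeq2, and it stayed at 1 with RLE factors and with total counts. Pkm had its direction in every alternative and passed with no filter (-0.50) and with DESeq2 (-0.52). The count of 2 genes for the contrast with the mean of the other conditions became 0 with the pair replicate block without number terms, 0 with no replicate block, 0 with total counts, 6 with no filter and 14 with DESeq2, and 0 to 4 when 1 number was left out. The count of 0 against SS became 3 with no filter and 4 with DESeq2. Values near 0 changed sign for Txnip (0.01 with total counts, and -0.07 to 0.02 when 1 number was left out), Ndrg2 (0.04 with total counts, and -0.05 to 0.05), Il6 (-0.23 to 0.07 when 1 number was left out) and Txnrd1 (0.01 with total counts, and -0.09 to 0.02). The cause of these changes was not tested. The median of all genes ran from -0.006 to 0.047 over the settings. Of 400 alternatives for list medians 392 moved by less than the spread between pairs and 8 by more, 5 of them with total counts. Sequencing depth limits genes at a few CPM, such as Cxcl3 and Kcnj8, more than the abundant ones.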
